A study of Homo sapiens with 3 samples.

Results

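MDA-MB-231 cells that had been given ADI-PEG20 for 48 h were compared with untreated cells of the same culture time, on 1 bead array each, across every gene with a probe above background. ADI-PEG20, arginine deiminase coupled to polyethylene glycol, breaks down arginine outside the cell. MDA-MB-231 is an established line of human breast carcinoma with basal and mesenchymal features, and the series treats it as deficient in ASS1, the enzyme with which cells make arginine from citrulline. The ASS1 transcript itself was above background, at 522 in untreated cells, 1042 after 48 h of ADI-PEG20 and 576 after arginine return, a log2 difference of 1.20 on its brightest probe and 1.81 on the next. The arrays did not measure the enzyme. The series holds 3 arrays, of which these are 2. The untreated cells were cultured for 48 h without enzyme. The treated cells had ADI-PEG20 at 0.3 µg/ml for 48 h. The other array is of cells given ADI-PEG20 at 0.3, with the unit cut short in the label, for 24 h and then L-arginine at 420 µg/ml for 24 h. Its intensities are printed beside those of the genes described, as the level after arginine return. All cells were of the same line in the same serum-containing medium, so the results describe 1 cell line in culture.

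Cells that lack arginine slow protein synthesis and switch on the amino acid response, in which uncharged tRNA activates a kinase of the initiation factor eIF2 and the factor ATF4 is translated. Many cells then divide less. Genes of amino acid synthesis, amino acid transport and tRNA charging, and genes of cell division, are therefore the usual subject of such an experiment. The genes described here are mainly those outside these functions: secreted proteins, transcription regulators, non-coding host genes of small nucleolar RNAs, membrane and cytoskeleton genes, and lipid and cofactor enzymes.

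The comparison covered 11129 of 20039 genes with a named probe, of which 10019 were above background on both arrays, 543 on the ADI-PEG20 array alone and 567 on the untreated array alone. A gene was taken as its brightest probe, and counted as above background over an intensity of 163, that is 3 background SDs above the mode of the intensities. Levels are the deposited intensities. Differences are log2 of the background-corrected intensity, with an offset of 16, as ADI-PEG20 minus untreated, so a difference of 1 is a 2-fold higher level. With 1 array a condition there was no replicate and no test, and each difference is between these arrays. The only error at hand is that between probes of the same gene, an SD of 0.22 on the log2 scale (from how far the 2 brightest probes differ, divided by the square root of 2, in 2601 genes), which covers the probe and not the culture. In such bulk RNA, fewer cells with a transcript and less of it in each cell cannot be told apart. Of 27 cell type markers, 14 were above background on both arrays and 12 on neither. VIM, CD44, CAV1, CAV2, AXL and MSN, which mark mesenchymal-like lines, were at intensities of 3719 to 16929.8 in untreated cells, while FN1, another such marker, was below background on every array. ESR1, PGR and FOXA1, of luminal breast cells, were below background on both arrays. GATA3, another luminal marker, was at 150.2 in untreated cells and just above background under ADI-PEG20, at 174. Other luminal or epithelial markers were above background on both arrays. ERBB2, CDH1, EPCAM and KRT19 were at 629, 245, 1009 and 2125 in untreated cells. ALB, a hepatocyte marker, was also above background on both arrays, at 267 and 231, while APOA1, another, was on neither. Of the 10 markers of blood, vessel and stromal cells, 3 were above background on both arrays. These were CD14, at 392 in untreated cells and 362 under ADI-PEG20, PECAM1 at 167 and 168, and PDGFRB at 201 and 182. All 10 summed to 1690.2 in untreated cells and 1679 under ADI-PEG20. These sums are mostly background, on arrays with the same range and median, so their nearness is no finding about such cells.

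Most genes differed little. The median difference was 0.00 and 82.8% of the genes were within 1.5-fold of each other on the 2 arrays. The arrays had the same lowest and highest intensity and medians of 149. A median difference near 0 is therefore no finding about the cells. At least 2-fold higher under ADI-PEG20 were 195 genes (1.75% of those compared), and at least 2-fold lower were 236 (2.12%). Among genes above background on both arrays the counts were 111 (1.11%) higher and 166 (1.66%) lower. With genes above background on 1 array only held at the smallest difference that the limit allows, they were 127 (1.14%) and 177 (1.59%). The amino acid response list accounted for 33 of the genes that were higher, out of 61 of its members compared, with a median of 1.02. The cell division list accounted for 61 of those that were lower, out of 186 compared, with a median of -0.80. Outside both lists, of 10882 genes, 161 (1.48%) passed the 2-fold threshold upward and 175 (1.61%) downward, with a median of 0.00. By probe, 269 of 14841 (1.81%) passed upward and 299 (2.01%) downward.

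**Figure D1:**
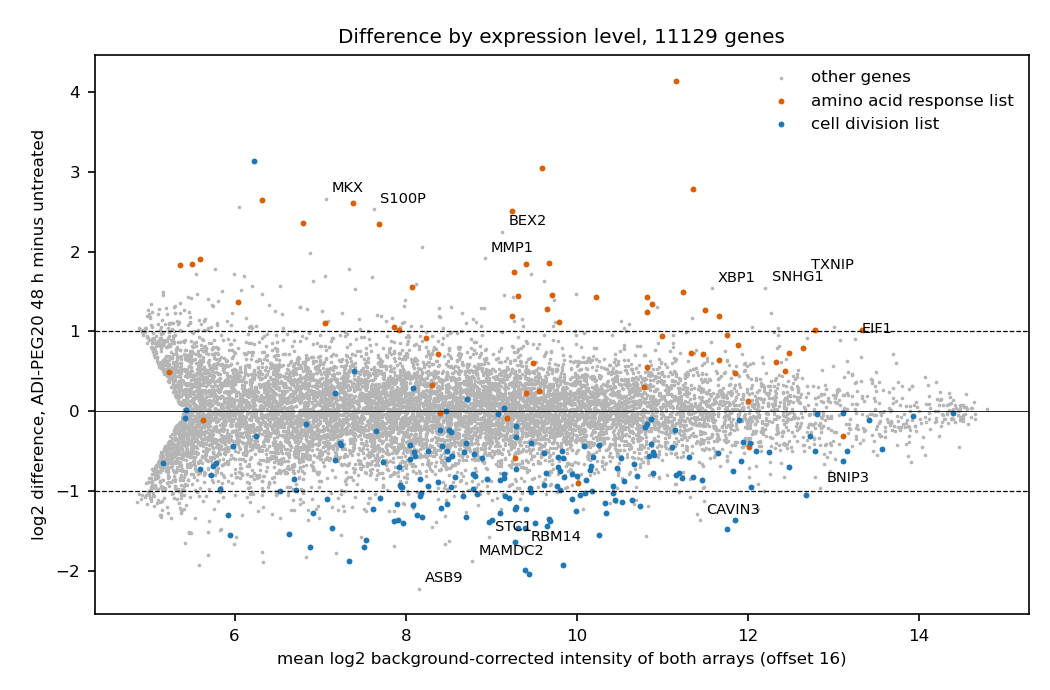
Each point is a gene, with the mean log2 background-corrected intensity of both arrays on the horizontal axis and the log2 difference, ADI-PEG20 minus untreated, on the vertical axis; dashed lines mark 2-fold. Orange points are the amino acid response list, blue points the cell division list, and grey points all other genes, which crowd around 0 and spread most at the left, near background.

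The genes with the largest positive differences outside both lists came from several functions. MKX, the Mohawk homeobox factor of tendon cells, was at 174 in untreated cells, near the background limit, 458 after 48 h of ADI-PEG20 and 154 after arginine return. Its difference of 2.67, or 6.35-fold, was the largest among these genes above background on both arrays, and its level after arginine return was below background. HOXB7, another homeobox gene, was also near background in untreated cells, at 175, with 281 after 48 h of ADI-PEG20 and 174 after arginine return, a difference of 1.57. These were the only members of the homeobox list, with 33 genes compared, at least 2-fold higher, against 1.75% of all genes. ZHX3, a zinc finger and homeobox repressor, was the 1 member at least 2-fold lower (2.12% of all genes), at 399.8 and 252 (-1.09).

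Several genes that were higher encode secreted proteins. S100P, a calcium-binding protein that is also found outside cells, was at 203 in untreated cells, 595 after 48 h of ADI-PEG20 and 206 after arginine return, a difference of 2.53 or 5.78-fold. MMP1, the interstitial collagenase, was at 371, 1066 and 417 in the same order, a difference of 1.92. IL24, a cytokine of the interleukin-10 family, was at 509, 1400.0 and 374, a difference of 1.72, with 1.71 on its other probe. In all 3 genes the ADI-PEG20 array stood above both others, as it did in each of the 25 genes with the largest positive differences. Such an order, here and below, is favoured by the choice of genes on the difference between ADI-PEG20 and untreated. Its share over all genes was not taken, so it is no test of a return with arginine. DMKN, dermokine of the epidermis, was higher on each of its 3 probes, by 2.06, 1.28 and 1.42, and its brightest probe was at 264, 716 and 349. SPINK1, a secreted inhibitor of trypsin-like proteases, was at 221, 409 and 229 (1.54). DEFB103A, a beta-defensin, was at 189.7 and 334; it has a near-identical copy, DEFB103B, so the gene its probes read is uncertain.

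Other genes were above background on the ADI-PEG20 array alone, and so entered only through the array where they were higher. Of those named here, GAL and MMP3 encode secreted proteins. The share of secreted proteins over all genes was not taken. GAL, which encodes the neuropeptide galanin, was at 146 in untreated cells, below background, 282 after 48 h of ADI-PEG20 and 189.9 after arginine return. It was at least 3.81-fold higher in background-corrected intensity, the largest bound in this direction. This bound and those that follow hold for the correction and offset used, and the deposited intensities differ by a smaller fold. MMP3, stromelysin 1, was at 149, 222 and 142, at least 2.40-fold higher. SEL1L3 was at least 2.95-fold higher, ST6GAL1, a Golgi sialyltransferase, at least 2.75-fold and SMPDL3B, a membrane phosphodiesterase, at least 2.30-fold. TSPYL2, a nucleosome assembly protein, was at least 2.70-fold higher on its brightest probe, but the other probes above background gave 0.28 and -0.04.

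Transcription regulators formed another group. XBP1, a factor of the unfolded protein response, was at 1907 in untreated cells, 5329.9 after 48 h of ADI-PEG20 and 1745 after arginine return, a difference of 1.54, and its other probe gave 1.23. TSC22D3, also called GILZ, a leucine zipper protein induced by glucocorticoids, was at 566, 1504 and 669, with 1.64 and 1.62 on its probes above background. MYC was at 3064, 6222 and 2757, with 1.05 and 1.16. In all 3 genes both probes were past 2-fold and the ADI-PEG20 array was the highest. CREBRF, a negative regulator of the factor CREB3, was higher by 1.15 and 1.51, while CREB3 itself was lower, at 336, 222 and 203 (-1.09), and CREB3L2 likewise (-1.02). KLF10, a zinc finger factor induced by TGF-beta, gave 1.78 and 1.65 on 2 probes, but 0.08 on a dimmer one near background.

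Single genes of redox and lipid control were higher too, although the lists of fatty acid oxidation and lipid droplets and of phospholipid synthesis had medians of -0.03 and -0.01. TXNIP, an arrestin-like protein that binds thioredoxin and restrains glucose uptake, was at 3712 in untreated cells, 11848 after 48 h of ADI-PEG20 and 3067 after arginine return. Its difference was 1.71, or 3.27-fold, on 1 probe, and it had the largest linear gain of all genes outside both lists. G0S2, an inhibitor of the triglyceride lipase ATGL, was at 464, 1059.8 and 412 (1.45). MID1IP1, which promotes the polymerisation of acetyl-CoA carboxylase, was at 647, 1508 and 641, with 1.40 and 1.43 on its 2 probes. PRELID3A, of a family of mitochondrial lipid carriers, was higher by 1.32 and 1.52. For TXNIP, a stretch of 160 bases from the 250 before 1 of its 2 annotated starts is shown. It holds 2 of the 8 short motifs searched in promoters, the forkhead core and CCAAT. The stretch was cut around these motifs, so its end does not mark the start. The sequence is from RefSeq, GRCh38.p14, chr1:145996620-145996779, minus strand, printed 5′ to 3′ in the direction of the gene, and capitals mark GTAAACA and CCAAT on either strand.
TXNIP: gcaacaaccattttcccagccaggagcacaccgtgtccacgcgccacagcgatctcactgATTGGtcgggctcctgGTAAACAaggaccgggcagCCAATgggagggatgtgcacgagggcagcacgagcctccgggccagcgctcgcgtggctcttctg
GTAAACA was found in 2.18% of 13130 annotated starts of genes compared and CCAAT in 33.6%, both strands counted over 250 bases before the start. TTTGAA, a cell cycle element core, also occurs before a start of TXNIP, outside the bases shown. For starts of the 25 genes with the largest positive differences, of which 20 had a promoter in the table, the shares were 6.90% and 31.0% of 29 starts. Of the other motifs, TGACTCA of AP-1 was in 6.90% of those starts, against 3% of the 13130 starts of genes compared. The starts with TGACTCA were of 1 gene, DMKN. The E-box CACGTG was in 6.90% against 8.42%, and TGACGT of cyclic AMP response elements in 3.45% against 9.51%. TGATGCA of C/EBP-ATF elements was in 3.45% against 1.33%, TTTGAA in 3.45% against 9.35% and the E2F core GCGGGAA in 3.45% against 8.11%. At 3.45%, 1 start of the 29 held the motif. Of 36 starts of the 25 genes with the largest negative differences, 11.1% held TGACTCA, 5.56% GTAAACA and 22.2% CCAAT. Of these 25 genes, 20 had a promoter in the table. The share with the AP-1 motif was 4 starts of 3 genes, and that with the forkhead core was 2 starts. The cell cycle element core was in 13.9% of the 36 starts, the cyclic AMP response element in 5.56% and the E2F core in 2.78%. The E-box and the C/EBP-ATF element were each in 0 of them.

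The remaining genes of this group have other roles. BEX2, a small brain-expressed X-linked protein, was at 378 in untreated cells, 1342 after 48 h of ADI-PEG20 and 384 after arginine return, a difference of 2.25, or 4.76-fold. TUBE1, epsilon-tubulin of centrioles, was at 229.5, 469 and 202, with 1.68 and 1.23 on its probes. RPL22L1, a paralogue of a ribosomal protein, was at 281, 603 and 277 (1.59). All 3 stood highest on the ADI-PEG20 array. ZC3H8, of a complex that promotes transcription of small nuclear RNA genes, was higher by 1.39. TXNL4B, a thioredoxin-like protein of the spliceosome, was higher by 1.46, TMEM268 by 1.70 and the locus CCZ1P-OR7E38P by 1.43. WDR89 gave 1.58 on its first probe and -0.52 on the next, both near background, so its direction depends on the probe. CD8A, a co-receptor of T cells, was higher by 1.10 and 1.09, from 291 to 486, while the T cell marker CD3E was below background on every array, at 131, 134 and 118.

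**Figure D2:**
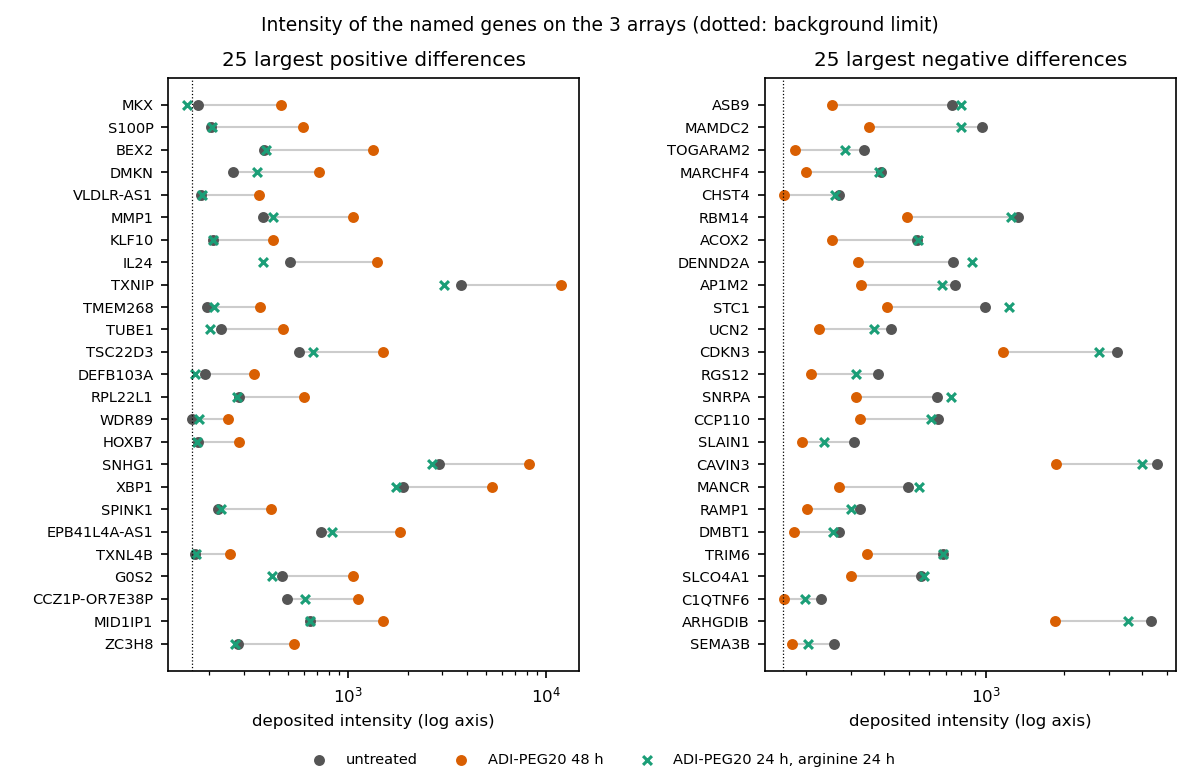
Deposited intensity (log axis) of the 25 genes with the largest positive difference (left) and of the 25 with the largest negative difference (right), outside the amino acid response and cell division lists; 1 point is 1 array and the dotted line is the background limit of 163. Many genes on the left start close to the limit in untreated cells. The genes were picked on the background-corrected difference between the untreated (grey) and ADI-PEG20 (orange) arrays. Near the limit this difference is larger than the distance plotted.

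Of the host genes of small nucleolar RNAs and other non-coding genes that could be compared, most were higher under ADI-PEG20. Small nucleolar RNAs guide the modification of ribosomal RNA, and many are cut from introns of host genes whose spliced transcripts make no known protein and are removed by nonsense-mediated decay while they are being translated. Of the 51 genes listed, 39 had a probe and 29 were compared, among them TAF1D, a host gene that also encodes a protein. The median of the 29 was 0.49, against 0.00 over all genes, with 22 higher and 7 lower. VLDLR-AS1, SNHG1, EPB41L4A-AS1, SNHG15 and ZFAS1, 5 of the 29, were at least 2-fold higher, against 1.75% of all genes compared. RPPH1, the RNA of ribonuclease P, was the 1 member at least 2-fold lower (-1.10), against 2.12% of all genes. SNHG1 was at 2878 in untreated cells, 8189.7 after 48 h of ADI-PEG20 and 2644 after arginine return, a difference of 1.55. SNHG15 was at 1365, 3192 and 1299, with 1.30 and 1.33 on its 2 probes. ZFAS1 was at 5816, 11936 and 6508 (1.05). On these genes the ADI-PEG20 array was well above both others, which lay close together. SNHG32 and SNHG5, among the brightest of the list, were at 10456 and 11134 in untreated cells and 17188 and 16929.8 under ADI-PEG20, differences of 0.72 and 0.61. Their dimmer probes gave 1.29 and 1.09, so the brightest probe gave the smaller value in both. Host genes without such a difference were SNHG6 (-0.06) and DANCR (-0.17), and non-coding genes of other kinds were TUG1 at 0.08, RN7SK at 0.13, OIP5-AS1 at -0.35 and DLEU1 at -0.41. With every gene that had a probe taken in, also those below background on both arrays, the median of the list was 0.26.

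**Figure D3:**
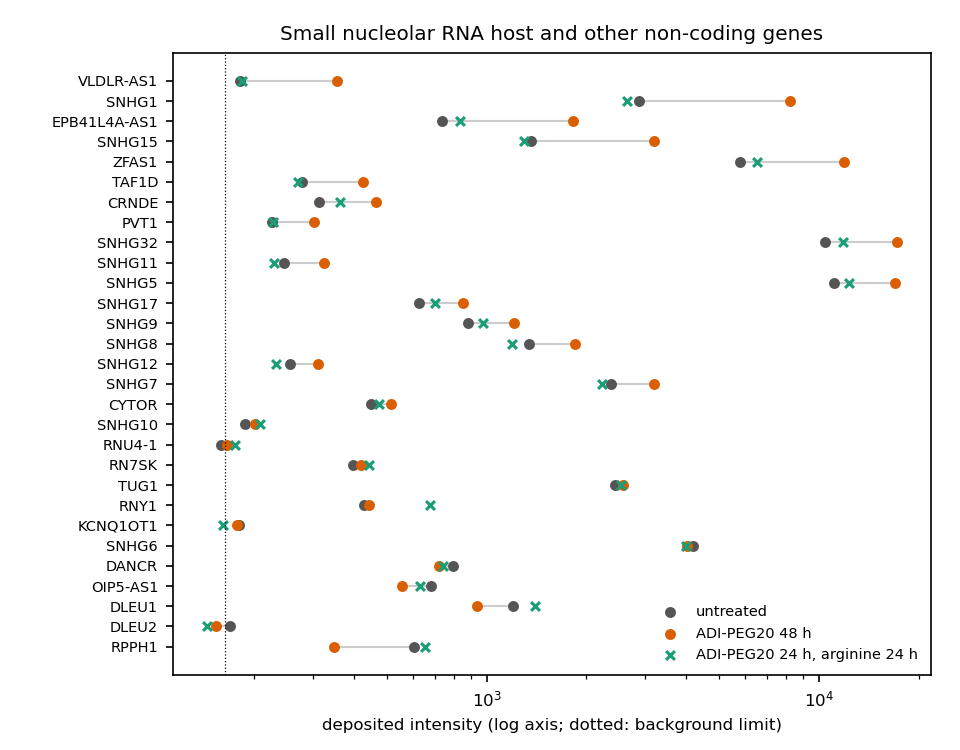
Deposited intensity (log axis) of the 29 compared members of the list of small nucleolar RNA host and other non-coding genes, ordered by difference; 1 point is 1 array and the dotted line is the background limit. In the upper part of the plot the ADI-PEG20 array lies to the right of the other 2, and RPPH1 at the foot lies to the left.

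Many host genes of small nucleolar RNAs begin with a run of pyrimidines, as ribosomal protein genes do. The starts of 5 members, picked by hand among those that were higher, are therefore shown. They are 30 bases before to 30 after the annotated start, from RefSeq, GRCh38.p14, printed 5′ to 3′ along the gene, and capitals mark the longest run of at least 5 C or T that overlaps the 5 bases on either side of the start. SNHG1 lies at chr11:62855856-62855915 on the minus strand, ZFAS1 at chr20:49278612-49278671 on the plus strand, SNHG32 at chr6:31834886-31834945 on the plus strand, SNHG5 at chr6:85678704-85678763 on the minus strand and EPB41L4A-AS1 at chr5:112160496-112160555 on the plus strand.
SNHG1: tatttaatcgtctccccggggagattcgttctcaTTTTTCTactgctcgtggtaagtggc
ZFAS1: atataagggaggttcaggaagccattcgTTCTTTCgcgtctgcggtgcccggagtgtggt
SNHG32: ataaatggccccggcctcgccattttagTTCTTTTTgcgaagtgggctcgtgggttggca
SNHG5: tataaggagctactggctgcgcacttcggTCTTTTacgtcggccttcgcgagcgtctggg
EPB41L4A-AS1: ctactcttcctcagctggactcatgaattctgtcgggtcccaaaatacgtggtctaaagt
The first 4 have a run and EPB41L4A-AS1 has none in that window. As the 5 were picked by hand, their share is no result. VLDLR-AS1, with the largest difference of the list (1.98), is not shown. Over the list, 13 of 21 annotated starts (61.9%) had one, against 34.4% of 13130 starts of genes compared. For the 25 genes with the largest positive differences the share was 41.4% of 29 starts, and for the 25 with the largest negative differences 18 of 36 starts had one.

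SNHG1 starts head to head with SLC3A2, the heavy chain of several amino acid transporters, so that both read outward from the same stretch of DNA. SLC3A2 was at 2258 in untreated cells, 5004 after 48 h of ADI-PEG20 and 2323 after arginine return, a difference of 1.19 beside 1.55 for SNHG1. The 250 bases before the start of SNHG1 are shown because both genes share most of them. They are from RefSeq, GRCh38.p14, chr11:62855886-62856135, minus strand, and capitals mark the 223 bases that also lie within 250 bases before a start of SLC3A2 on the plus strand.
SNHG1: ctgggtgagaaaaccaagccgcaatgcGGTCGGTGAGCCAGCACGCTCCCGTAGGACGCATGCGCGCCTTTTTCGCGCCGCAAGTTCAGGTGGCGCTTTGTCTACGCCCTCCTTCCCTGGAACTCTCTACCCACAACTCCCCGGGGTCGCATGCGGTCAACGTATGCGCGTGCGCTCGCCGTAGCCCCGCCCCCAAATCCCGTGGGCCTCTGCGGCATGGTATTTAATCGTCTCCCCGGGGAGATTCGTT
VLDLR-AS1 starts head to head with VLDLR, the receptor of very low density lipoprotein. VLDLR-AS1 was at 180.4, 355 and 183 (1.98), and VLDLR at 339.5, 534 and 369 (0.92). Of 28 head-to-head pairs of a named gene and a compared neighbour, 19 differed with the same sign and 9 with opposite signs. In 20 the neighbour differed by less than 0.5. The named genes were mostly picked for large differences, and no such counts were taken over all head-to-head pairs. Whether neighbours differ together was therefore not tested. Both genes differed by at least 0.5 the same way in 6 pairs. Besides the pairs above these were ARL3 and SFXN2 at -0.83 and -0.74, B9D2 and TMEM91, LRRC45 and CENPX, and VPS26B and NCAPD3. Both differed by at least 0.5 in opposite directions in 2 pairs. LYRM4, of iron-sulfur cluster assembly, was higher by 0.99, and its neighbour FARS2, a mitochondrial tRNA synthetase gene, was at -0.94. SHPK, sedoheptulokinase, was at -1.16 and its neighbour CTNS, the lysosomal cystine carrier, at 0.57. TUBE1 and TXNL4B, higher by 1.68 and 1.46, start next to FAM229B and DHX38, which were at -0.09 and -0.05.

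Among genes with the largest negative differences, ASB9, which brings creatine kinase to a cullin ubiquitin ligase, had the largest. It was at 736 in untreated cells, 253 after 48 h of ADI-PEG20 and 799 after arginine return, a difference of -2.22, or 4.67-fold lower, with -2.78 on its other probe. Single genes of other ubiquitin ligases were lower as well. MARCHF4, a ligase of the Golgi membrane, was at 391, 199.8 and 384 (-1.78), and TRIM6 at 678, 345 and 679.8 (-1.32). SKP2, the F-box protein that directs the cell cycle inhibitor p27 to degradation, was at 1356, 733 and 1319, with -1.01 and -1.08 on its probes above background. In each of these the ADI-PEG20 array was below both others, an order that the choice of genes favours. Over the 100 cullin ligase and F-box genes compared the median was 0.08, with 3 at least 2-fold lower, ASB9, SOCS1 and SKP2, a share near the 2.12% of all genes. Over 32 TRIM genes the median was 0.01, and TRIM6 was the 1 member 2-fold lower.

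Secreted and extracellular proteins were found among the lower genes too. STC1, stanniocalcin 1, a secreted glycoprotein hormone, was at 987 in untreated cells, 412 after 48 h of ADI-PEG20 and 1222 after arginine return, a difference of -1.57. MAMDC2, a secreted protein with MAM domains, was at 963, 350.4 and 797 (-1.88). UCN2, urocortin 2, a peptide ligand of a corticotropin-releasing hormone receptor, was at 428, 224 and 366 (-1.57). Each of these was lowest under ADI-PEG20. SEMA3B, a secreted semaphorin, was lower by its brightest probe (-1.29) but not by the other (0.43), and C1QTNF6, a C1q-like secreted protein, was at -1.30 with its ADI-PEG20 level close to background. DMBT1, a mucin-like scavenger receptor protein, was at -1.34. PGF, placental growth factor, and ARTN, the neurotrophic ligand artemin, were below background under ADI-PEG20, with 218 and 215 in untreated cells. In background-corrected intensity they were at least 2.29- and 2.22-fold lower. SPOCD1, CYB5RL, LRRC45 and BTN2A2, a butyrophilin of the cell surface, were the other genes with the largest bounds, at least 2.25- to 2.67-fold lower. For LRRC45 another probe, just above background on both arrays, gave 0.01.

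Some genes of caveolae and the cytoskeleton were among those lower, several of them from a high level. CAVIN3, which coats caveolae, the flask-shaped pits of the plasma membrane, was at 4597 in untreated cells, 1854 after 48 h of ADI-PEG20 and 3994 after arginine return, a difference of -1.37. The other caveola genes were looked up after this value was seen. CAVIN1 was at 10428, 6263 and 10539.9 (-0.75), and CAVIN2 at 669, 383 and 561 (-1.07). Caveolins themselves differed less: CAV1 was at -0.31 and -0.41 on its probes, and CAV2 at 0.26, -0.12 and -0.12. EHD2, an ATPase at the neck of caveolae, was at -0.25, and PACSIN2, which bends membranes there, at 0.02. PAK4, a kinase of the actin cytoskeleton, was at 535, 299.9 and 583 (-1.21, but -0.60 on the next probe). MYH10, a non-muscle myosin heavy chain, was at 2049, 1103 and 2099.7 (-0.97).

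Further genes that were lower act in membrane traffic, at microtubules and in receptor signalling. AP1M2, the medium chain of the epithelial sorting adaptor, was at 759 in untreated cells, 328 after 48 h of ADI-PEG20 and 671 after arginine return (-1.63). DENND2A, an exchange factor of a RAB GTPase, was at 745, 318 and 876 (-1.66). CCP110, which caps centrioles, was at 650.4, 323 and 609 (-1.39). On these 3 genes the ADI-PEG20 array was the lowest. SLAIN1, a protein of growing microtubule ends, gave -1.37 and -1.12 on its probes, and TOGARAM2, a tubulin-binding protein, -1.82. RAMP1, a subunit of the receptor of calcitonin gene-related peptide, was at -1.34, RGS12, which shortens G protein signals, at -1.55, CXCR4, the chemokine receptor, at -1.24 and -0.56, and ADORA2A, an adenosine receptor, at -1.20. RGS12, CXCR4 and ADORA2A were the 3 members at least 2-fold lower of 60 receptor and RGS genes compared, against 2.12% of all genes, and the median of the list was -0.01.

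In the nucleus, RBM14, an RNA-binding coactivator of paraspeckles, was at 1327 in untreated cells, 491 after 48 h of ADI-PEG20 and 1243 after arginine return, a difference of -1.71. SNRPA, a protein of the U1 particle of the spliceosome, was at 646, 313 and 727 (-1.45). CDKN3, a phosphatase of cyclin-dependent kinases that was not in the cell division list, was at 3199, 1164 and 2737 (-1.56), and ERCC6L, a DNA helicase of mitotic chromosomes also outside that list, gave -1.07 and -1.08. Thus some genes of division remained among those described here. WT1, the Wilms tumour zinc finger factor, was lower on both probes, -1.04 and -1.57, at intensities of 249 and 246 in untreated cells. MYL1, a myosin light chain of muscle, was low in level and lower under ADI-PEG20, at -1.02 on its brightest probe, with 223 in untreated cells and 172 under ADI-PEG20 on the next. Enzymes and transporters on this side were ACOX2, the peroxisomal oxidase of branched fatty acids and bile acid precursors, at 539.9, 251 and 542 (-1.69), CHST4, a sulfotransferase of the Golgi, at -1.76, and SLCO4A1, an organic anion transporter, at 557, 298 and 573 (-1.30). The antisense transcript SLCO4A1-AS1 was at -1.25; the strand each probe reads was not checked. MANCR, a long non-coding RNA, was at 499, 268 and 550.3 (-1.36).

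A 2-fold threshold passes over abundant transcripts, so the largest linear gains and losses were taken as well. Besides TXNIP, SNHG32, ZFAS1, SNHG5 and SNHG1, the 10 largest gains were of EIF1, DBNDD2, RPS3A, RPL23 and SQSTM1. EIF1, which selects the start codon in translation, was at 7253 in untreated cells, 13453 after 48 h of ADI-PEG20 and 7824 after arginine return (0.90). DBNDD2, a dysbindin-like protein, was at 6467, 11870.5 and 6691 (0.89). RPS3A and RPL23, ribosomal proteins, were at 0.43 and 0.68, and SQSTM1, the autophagy receptor p62, at 0.36. The gains of RPS3A were like on its 3 probes, 0.43, 0.30 and 0.27.

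Losses of abundant transcripts were found in glycolysis, the cytoskeleton and calcium binding. LDHA, lactate dehydrogenase A, was at 26451 in untreated cells, 19500.0 after 48 h of ADI-PEG20 and 25514 after arginine return (-0.44, and -0.39 on the next probe). GAPDH, of glycolysis, was at 21634, 17471 and 20046, and its 3 probes gave -0.31, -0.43 and -0.37. S100A4, a calcium-binding protein of motile cells, was at 19284, 12431 and 19460.3 (-0.64, and -0.76 on its other probe). For these 3 genes each probe was lower under ADI-PEG20 than on either other array. BNIP3, a mitochondrial protein of hypoxia and mitophagy, was at 10373, 5390.2 and 13337, with -0.96 the largest log2 difference of these. MYL6, a light chain of non-muscle myosin, was at -0.45, LASP1, an actin-binding protein, at -0.55, and CAVIN1 at -0.75. RPL36AL, a ribosomal protein, was at -0.42 and the histone gene H4C3 at -0.55. POTEF, whose protein holds an actin domain of near-identical sequence, was listed at 18373 and 12509, so the gene its probe reads is uncertain. The 20 brightest genes, at 22165 to 28716, differed by -0.16 to 0.21, on arrays that had the same highest intensity.

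Gene lists by function had medians near 0, with few exceptions. Of 47 lists, 46 had a median within 0.2 of 0, and 23 had no member at least 2-fold higher or lower. The lowest medians were -0.17, for TGF-beta and BMP genes (37 compared) and for intermediate filaments and desmosomes (20 compared). Apart from small nucleolar RNA host and other non-coding genes, the highest was 0.19, for 30 genes of NAD, coenzyme A and pterin cofactors. Within that list LIAS, lipoic acid synthase, was at 255, 429 and 265 (1.20). PANK4, a pantothenate kinase relative, was below background under ADI-PEG20 and at least 1.96-fold lower in background-corrected intensity. Actin, myosin and focal contact genes leaned one way without large differences: 52 of 76 were lower, 24 higher, the median was -0.10 and none was 2-fold apart. Nuclear pore and transport genes were similar, with 39 of 64 lower and a median of -0.11, led by ALYREF, an mRNA export factor (-0.96). RNA polymerase and Mediator genes had 55 of 90 higher and a median of 0.09, although TAF5, of the initiation factor TFIID, and POLR2L, a small polymerase subunit, were lower, at -1.25 and -1.11.

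**Figure D4:**
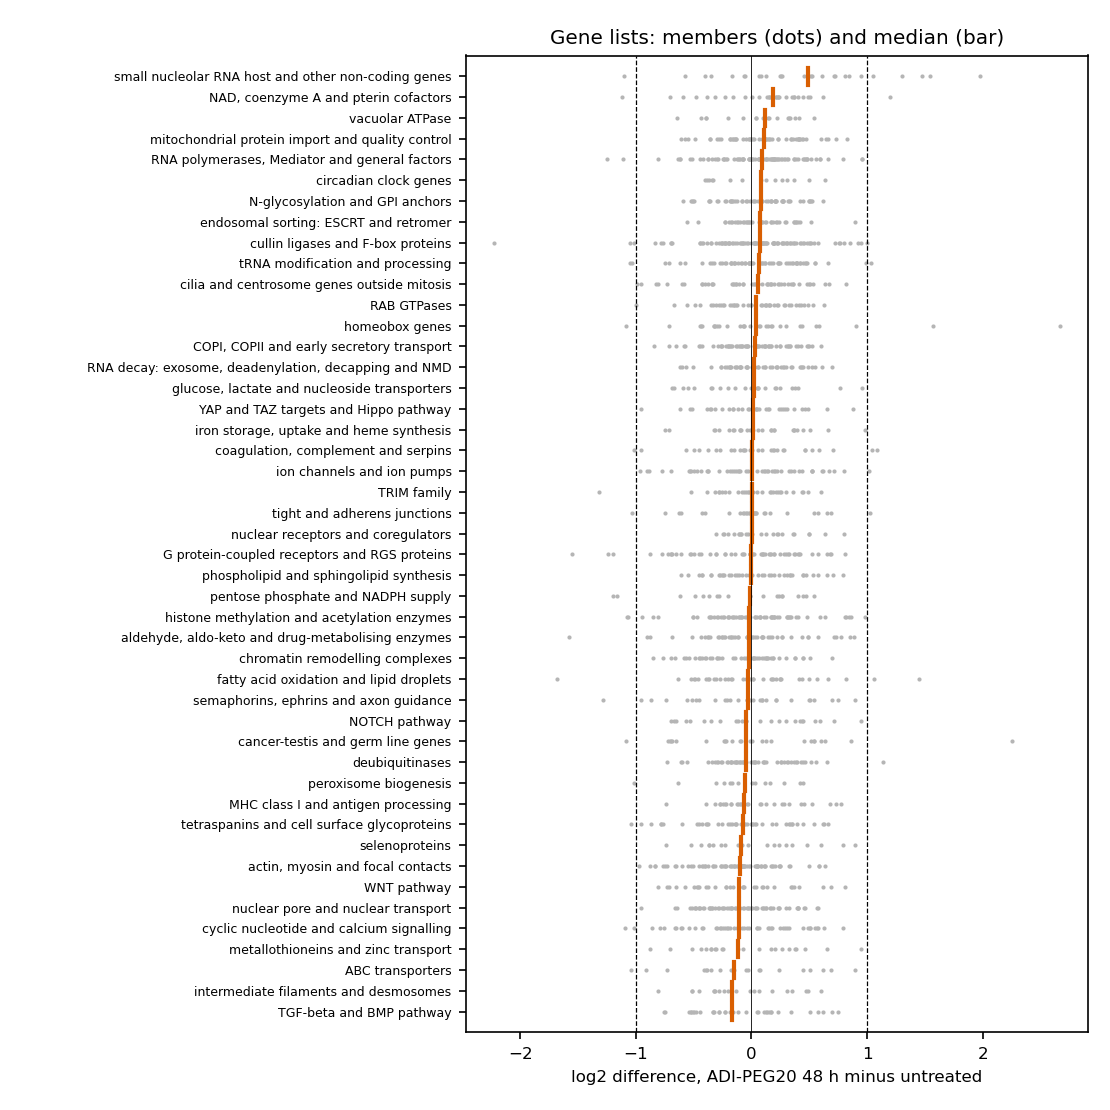
Log2 difference, ADI-PEG20 minus untreated, of the compared members of each of 46 of the 47 gene lists (dots) and the median of the list (bar), ordered by median; dashed lines mark 2-fold. The list at the top, of small nucleolar RNA host and other non-coding genes, is at 0.49. The bars of all others shown lie within 0.2 of 0.

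Single members stood apart from such lists. In redox and NADPH supply, TXNRD1, the selenoprotein thioredoxin reductase, was at 4079, 6956 and 3933, with 0.79 and 0.80 on its probes. CAT, catalase of peroxisomes, was lower, at 1055, 582 and 897 (-1.02, and -0.76 on its other probe). IDH2, the mitochondrial NADPH-making isocitrate dehydrogenase, was at 334, 214 and 284 (-1.20). Thus members of the antioxidant system differed in both directions. Among transporters, SLC39A14, which takes up zinc and iron, was at 686, 1212 and 712 (0.95), and SLC2A3, a glucose transporter, at 1727, 3233 and 1851 (0.95). The medians of their lists were -0.11 over 23 genes and 0.02 over 24.

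At the cell surface, CD55, which protects cells from complement, was at 1164 in untreated cells, 2268 after 48 h of ADI-PEG20 and 1298 after arginine return (1.04). CDH1, E-cadherin, was at 245, 374 and 293 (1.03), and EPCAM, another epithelial adhesion molecule, at 1009, 1484 and 1002, with 0.62, 0.68 and 0.58 on its 3 probes. The epithelial keratin KRT19 was at -0.32, so these epithelial markers did not all differ the same way. HLA-DRA, a chain of MHC class II, was at 2186, 3647 and 2438, with 0.77 and 0.70, while PSMB9, an immunoproteasome subunit, was at -0.74 and 0.11. TSPAN9 and CD82, tetraspanins, were lower, at -0.96 and -0.87, in a list of 44 with a median of -0.08. In mitochondria, HSPA9, the chaperone that pulls proteins into the matrix, was at 4566, 7139.7 and 4626 (0.66), TIMM44, its partner at the import pore, at 0.73, and DNAJC19 at 0.83. Over 55 genes of mitochondrial import and quality control the median was 0.11, with 32 higher and 23 lower. None was 2-fold apart, where 1.75% of all genes were at least 2-fold higher and 2.12% lower. CHMP4A and CHMP4B, ESCRT subunits that form filaments, were at 0.90 and 0.52, and OGA, which removes O-linked N-acetylglucosamine, at 0.62.

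The spread of the differences varied with the level of expression. Ordered by mean level in 10 bins of 1112 or 1113 genes, the SD of the difference was 0.65 in the dimmest bin, 0.45 in bin 5 and 0.36 in the brightest. Of the dimmest genes 59 (5.30%) were at least 2-fold higher and 53 (4.76%) lower. Of the brightest genes 14 (1.26%) were higher and 8 (0.719%) lower. The median difference stayed between -0.06 and 0.01 in every bin, on arrays with the same range and median of intensity. The trend depends on the background correction: on the uncorrected intensity the SD was 0.18 in the dimmest bin, where no gene was 2-fold apart, and 0.35 in the brightest, with the same 14 and 8 counts there. Of the 25 genes with the largest positive differences, 14 had an untreated intensity under 300 and 3 over 1000, and 17 were also at least 2-fold higher in uncorrected intensity. For the 25 with the largest negative differences these numbers were 4, 4 and 12.

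Where a gene had several probes, they served as the check on its value. For 2601 genes with at least 2 probes above background on both arrays, the differences on the 2 brightest had a correlation of 0.72 across genes, and 0.67 over the 2534 genes outside both lists; genes are not independent, and both probes share the same 2 arrays. The sign was the same in 73.6% of genes. It was the same in 63.4% of 1350 genes whose brighter probe differed by under 0.25, in 89.5% of 418 between 0.5 and 1, and in 68 of 70 (97.1%) past 2-fold. Of these 70 genes, 39 were also past 2-fold on the next probe. Outside both lists 43 of 45 kept the sign but only 18 were past 2-fold on the next probe. The error between probes was 0.28 where the next probe was among the dimmest 867 and 0.16 where it was among the brightest 867.

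In 16 genes every probe above background on both arrays, of 2 or more, was at least 2-fold higher, 11 of them outside both lists: CD8A, CREBRF, DMKN, IL24, MID1IP1, MYC, PRELID3A, SNHG15, TSC22D3, TUBE1 and XBP1. Every such probe was at least 2-fold lower in 21 genes, 6 of them outside both lists, among them ASB9, ERCC6L, MYL1, SKP2 and WT1. Probes of other genes disagreed. NRG1, which encodes neuregulin ligands of ERBB receptors in many isoforms, gave 0.58 at 648 in untreated cells and 909.9 under ADI-PEG20 on its brightest probe, but -0.77 at 413 and 292 on the next. BAX, the pore-forming cell death protein, gave -0.47 and 0.78. CTBP2, a corepressor, gave 1.01 and -0.43, and CPT1A, which admits fatty acids to mitochondria, 1.06 and -0.26. ARRDC2, an arrestin relative of TXNIP, gave -0.38 and 0.87, and PHLDA1 gave 0.63 on a bright probe and -0.59 on one more than 10 times dimmer. For these 6 genes no direction is given for the gene as a whole. Whether their probes read different transcripts was not tested.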

How the data were processed

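Total RNA was hybridised to 1-colour Illumina bead arrays, 1 array for each of 3 conditions, grouped by title. The authors deposited an intensity for each of 47231 probes, linear by its values. The submitters' processing notes name GenomeStudio, and the normalization is not given in the sources used here. All arrays had the same lowest and highest intensity and medians of 149, as after quantile normalization, which hides a change of total RNA. A deposited table of values before normalization was not used, since its 6 per-sample columns match no single sample.

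Each intensity was corrected by normexp (normal background of mean 136.95 and SD 8.77, exponential mean 425) in Python 3.11.15 with numpy 2.4.6, pandas 2.3.3 and scipy 1.17.1, an offset of 16 was added, and log2 of the deposited intensity so corrected was subtracted between arrays. A gene was its probe with the highest mean among those with 1 listed gene (30113 probes, named through RefSeq GRCh38.p14 and the platform table). It entered if above background on either array. Where it was above on 1 array only, the fold is a bound against the background level of the other array, written as at least. Such a bound is of corrected intensity and depends on the correction and the offset. It is larger than the fold in deposited intensity. Values near that limit are least precise, and 1 array a condition limits every value. The steps were tested on simulated data.

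Named were the 25 largest differences each way among genes above background on both arrays outside the amino acid response and cell division lists, the 6 largest bounds, the 3 largest of each of 47 lists, genes with all probes past 2-fold, the 6 with most discordant probes, the 10 largest linear gains and losses, and markers. Not all of these are described in the text, and 1 list is not reported here. The comparison, genes and lists were chosen with earlier results of these data known. Promoters are RefSeq's 250 bases before each start. Head-to-head neighbours start within 1000 bases on opposite strands.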

Additional observations from a re-analysis of the deposited data

Results flagged for a closer look

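Probes with no gene in the platform annotation were left out of the comparison, and some of them differed between the arrays. Of 4594 such probes above background on either array, 106 (2.31%) were at least 2-fold higher under ADI-PEG20 and 79 (1.72%) at least 2-fold lower. For probes with a gene the shares were 1.81% and 2.01% of 14841. The transcripts these probes read are not named here.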

How the results depend on the processing

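Counts past 2-fold depended most on the background correction. Without it 52 genes were higher and 50 lower, and with an offset of 50 in place of 16 they were 88 and 101. Taking only genes above background on both arrays gave 111 higher, and holding genes at their bound gave 127 higher. At 1.5-fold the counts were 884 and 1035. A limit of 6 SDs, no filter, the mean over probes and a median set to 0 each left both counts within 1.5 times. The median of small nucleolar RNA host and other non-coding genes was 0.26 with no filter on dim probes and 0.40 to 0.51 under the other alternatives. Of 232 named genes compared, 138 moved by more than the error between probes without the correction, 78 with an offset of 50, 31 with the mean over probes and 27 at their bound. ARRDC2, BAX and NRG1 changed sign under the mean over probes, each from a difference below 2-fold, and no other named gene changed sign under any alternative run. No paired analysis was possible because each condition had 1 array, and for the same reason no replicate could be left out. Differences near the limit of 163 are set by few units of intensity and are the least certain.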

Other observations

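Signalling pathways other than those above held single genes that differed by less than 2-fold between ADI-PEG20 and untreated cells. HES1, a target of NOTCH, was at 311 in untreated cells, 432 after 48 h of ADI-PEG20 and 328 after arginine return (0.71), while HES6 was at 513, 363 and 431 (-0.69). BMP4, a ligand of the BMP pathway, was at 474, 331 and 472 (-0.75), ID3, a target of that pathway, at -0.76, and FSTL3, which binds activins, at 0.75. In the WNT pathway FZD2, a receptor, was at 1206, 776 and 1148 (-0.73), and CTNNBIP1, an inhibitor of beta-catenin, gave -0.81 and -0.74 on its probes. Of the circadian genes, NR1D2, a repressor of the clock, was at 0.63 and CLOCK at -0.40. The medians of these lists were -0.05 over 25 NOTCH genes, -0.17 over 37 TGF-beta and BMP genes, -0.10 over 33 WNT genes and 0.09 over 15 circadian genes.

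In the secretory pathway SSR2, a subunit of the translocon-associated complex, was at 3546 in untreated cells, 2028 after 48 h of ADI-PEG20 and 2641 after arginine return (-0.85), but its dimmer probe gave 0.05. SPCS3, of the signal peptidase, gave -0.71 and -0.41. RAB38, of lysosome-related organelles, was at 561, 341 and 562, at the 2-fold threshold, and RAB27B, of exosome release, at 1015, 1504 and 831 (0.63). POLR3A, the largest subunit of RNA polymerase III, gave 0.96 on its brightest probe and 0.22 on the next. RAN, the GTPase of nuclear transport, gave -0.66 and -0.06, so both rest on the probe chosen.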
